A study of Homo sapiens with 14 samples.

Results

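The data are ChIP-seq regions of the NF-κB subunits p50, p52, RelA and RelB in L1236, an established cell line of Hodgkin lymphoma, a tumour of B cell origin. The regions considered here are those that the deposited table assigns to 8 genes for transcription factors of B cell identity, namely *PAX5* (ENSG00000196092), *EBF1* (ENSG00000164330), *IKZF1* (ENSG00000185811), *SPI1* (ENSG00000066336), *FOXO1* (ENSG00000150907), *POU2F2* (ENSG00000028277), *POU2AF1* (ENSG00000110777) and *BCL6* (ENSG00000113916). A region was taken when one of these genes was named as its closest gene or as its closest transcription start site (TSS), which gave 39 of 14865 regions. The labels give no treatment or genetic change of the cells, so all values describe the constitutive state of a single cell line. Each subunit was immunoprecipitated in 2 replicates and compared with input DNA from 6 libraries. The antibody against p52 was a mouse monoclonal in one replicate and a rabbit polyclonal in the other, while each of the other subunits was precipitated with the same antibody in both.

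NF-κB acts as dimers. p50 and p52 are cut from the longer precursors p105 and p100 and lack a transactivation domain, whereas RelA and RelB carry one. p50-RelA is the typical dimer of the canonical pathway and p52-RelB that of the non-canonical pathway. The 8 factors build and keep the B cell programme. EBF1 and PAX5 specify the lineage and commit cells to it, IKZF1 (Ikaros), SPI1 (PU.1) and FOXO1 act from early progenitors on, POU2F2 (Oct-2) and its coactivator POU2AF1 (BOB.1) drive octamer-dependent genes such as those of immunoglobulins, and BCL6 is the repressor that maintains the germinal centre state. Reed-Sternberg cells are known for having lost much of this programme. The table holds no expression values, so the levels of these factors in L1236 were not analysed here.

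Of the 8 genes, 6 had at least one region and 2 had none. *IKZF1* had 18 regions, *PAX5* 8, *POU2AF1* 7, *BCL6* 3, *FOXO1* 2 and *POU2F2* 1, whereas neither *EBF1* nor *SPI1* was named as closest gene or closest TSS of any region. Across the genome 8450 genes were named at least once and 55.2% of them had a single region. Only 10 genes had more regions than *IKZF1*, 141 had more than *PAX5* and 214 had more than *POU2AF1*. These counts were not corrected for the length of the gene or of its neighbourhood, and a region between genes counts for the nearest one, so that a count of 0 says only that no region lay closest to *EBF1* or *SPI1*.

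The sequences that can be shown are those at the sites where the data touch a known position. Within the strongest region of *BCL6* lies the amplicon that the study designed for ChIP-qPCR. Its primers are given 5′ to 3′ without capitals, since no part of them is singled out.
BCL6 sense primer: gtgggtgagaggtgggacta
BCL6 reverse primer: ctttcccctaaatccctcgt
The primers are placed at positions 7589 and 7660 of *BCL6*, counted from the TSS as 1, which corresponds to chr3:188938510-188938581 on hg18, within the region chr3:188937586-188939675. The amplicon lies 28 to 99 bp from the p50 summit of that region.

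*POU2F2* was the one gene with a region over its TSS. Its promoter, from 250 bp before to 50 bp after the start site in RefSeq (GRCh38.p14, chr19:42132397-42132696, minus strand), is shown for that reason, with capitals on matches to GGGNNNNNCC on either strand. These letters are the ends of a κB site with free bases between them.
POU2F2 promoter: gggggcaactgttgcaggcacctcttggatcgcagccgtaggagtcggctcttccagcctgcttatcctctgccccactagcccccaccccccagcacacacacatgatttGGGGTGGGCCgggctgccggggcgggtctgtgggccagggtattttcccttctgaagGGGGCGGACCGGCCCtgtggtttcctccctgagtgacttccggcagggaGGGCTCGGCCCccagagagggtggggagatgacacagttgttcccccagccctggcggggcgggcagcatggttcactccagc
The promoter held 5 such matches, some of them overlapping on opposite strands, and no match to the full κB consensus, every match of which is also a match to the shorter form. RefSeq gave 9 promoters for 6 of the 8 genes, and none of the 9 held the κB consensus, which was found in 5.91% of all 35116 promoters. The looser form was present in 3 of the 9 and in 58.7% of all promoters. The match is a description of letters in these windows. It was not established here whether the RefSeq start of *POU2F2* is the TSS that the table uses on hg18.

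The first question was which subunits occupied the regions of the 8 genes. A subunit counts as called where the authors' peak calls passed both the irreproducible discovery rate between replicates (IDR) and the false discovery rate (FDR). p52 was called in 34 of 39 regions, against 73.3% of all regions, and p50 in 33, against 73.8%. RelB was called in 11 regions, 28.2% of them, which was near its share of 26.8% among all regions. RelA was called in 1 region, against 3.31% of all regions. In the members as in the whole data set, p50 and p52 were called far more often than RelB, and RelA least often. The enrichments and reads come from merged replicates, and the calls join peaks of the merged reads with the IDR between replicates. The signal values of single replicates carry no replicate number, so the shares are given as descriptions without a test.

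p50 and p52 were called together in 28 of the 39 regions, against 51.4% of all regions. They were the sole subunits in 18 regions (31.8% of all regions) and were joined by RelB alone in 9 (17.1%). p50 was the sole subunit in 5 regions (21.2%) and p52 in another 5 (19.8%). One region at *PAX5* was called for p52 and RelB without p50, a combination seen in 1.93% of all regions. No member region was called for RelB alone (3.83% of all regions), and each of the 11 RelB regions was also called for p52, as were 80.3% of the RelB regions of the whole data set. The summits of p50 and p52 lay a median of 9.5 bp apart in the 28 shared regions, against 11 bp in all shared regions. Of the 28 pairs, 27 lay within 100 bp. Within 250 bp it was also 27, against 7284 of all 7643 shared regions. The exception was the region chr7:50385063-50386363 within *IKZF1*, whose p50 and p52 summits were 662 bp apart.

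**Figure D1:**
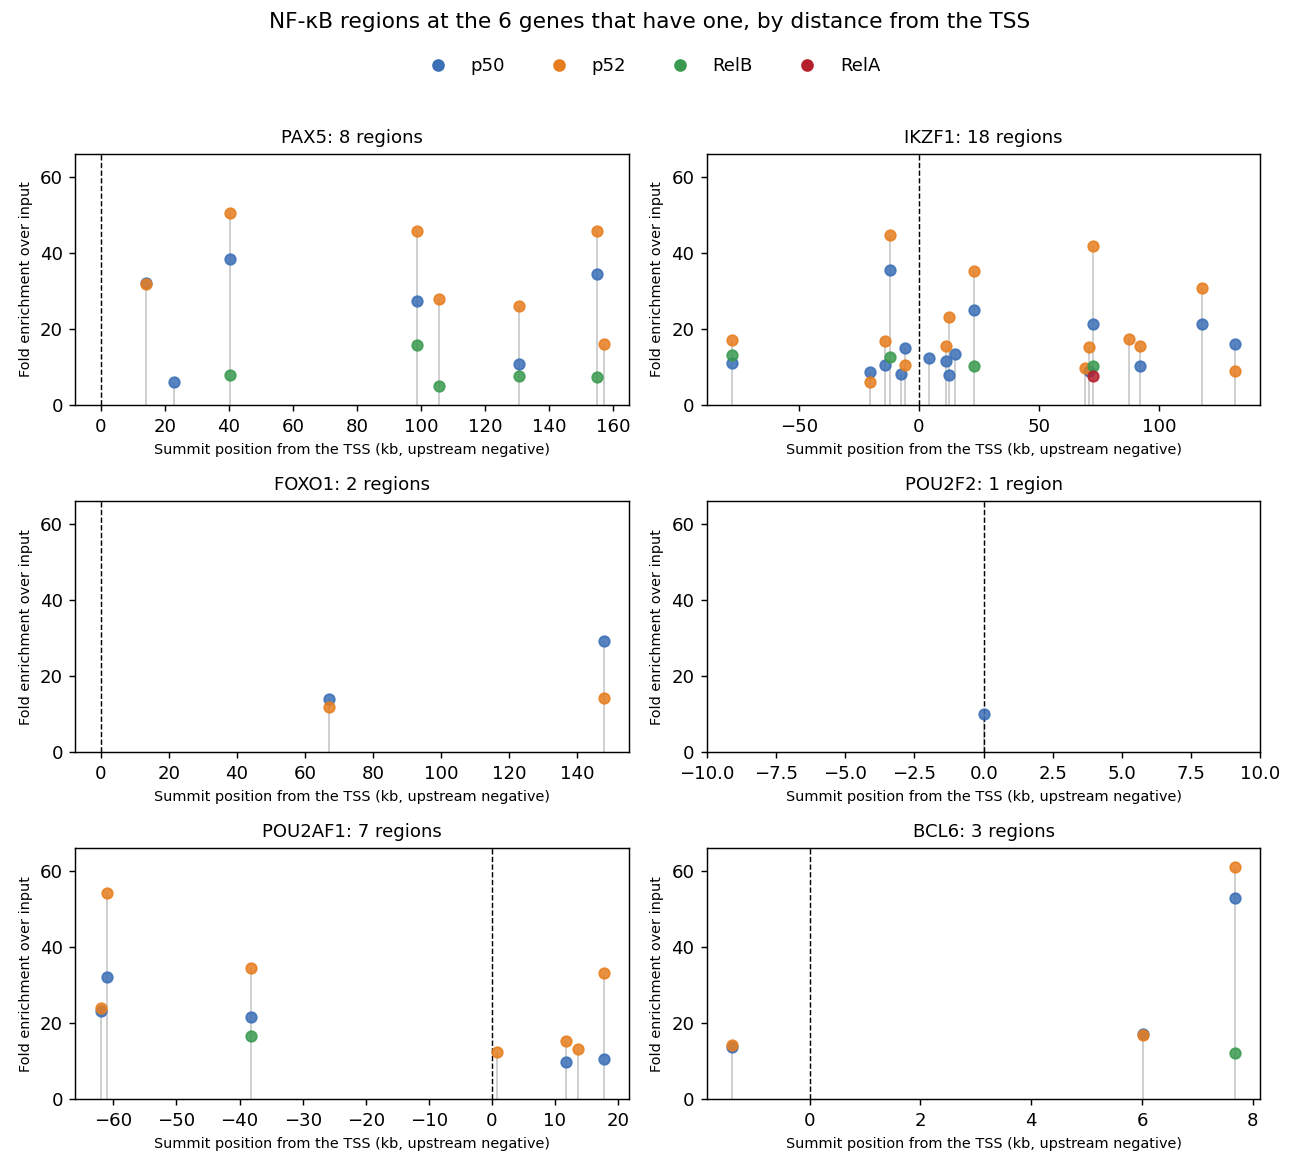
Fold enrichment over input (vertical axis) of each called subunit in the regions of 6 genes, placed by the distance of the summit from the TSS in kb (horizontal axis, upstream negative, dashed line at the TSS; the p52 summit where p52 was called, otherwise the p50 summit). Each point is a subunit called in a region and each grey line joins the points of a region to the axis; the *POU2F2* region, which overlaps the TSS, is drawn at 0. All 8 *PAX5* regions lie downstream of the TSS, and the single RelA point is at *IKZF1*.

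With regard to position, the regions of the 8 genes lay mostly away from start sites. Only 2 of 39 lay within 1 kb of the closest TSS, or 5.13%, against 20.1% of all regions. The share was also below that of all regions in the comparison genes described at the end, with 6.10% of the regions of other lymphoid factors and 12.5% of those of B cell effector genes. Within 5 kb there were 4, or 10.3%, against 29.4% of all regions. The median distance to the closest TSS was 22590 bp, close to the 21516 bp of all regions. In contrast, 27 of the 39 regions overlapped the body of the closest gene, against 58.0% of all regions. Whether they fell into exons or introns was not analysed here. Some regions were close neighbours, with 8 of the 33 pairs of successive regions of a gene less than 1 kb apart. Such regions are not independent of each other. The share of such pairs over all genes was not computed.

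*PAX5*, the factor of B lineage commitment, carried all of its 8 regions inside the gene on chromosome 9. The nearest began 13294 bp and the farthest 156729 bp downstream of the TSS, and none was at the TSS itself. p52 was called in 7 of them, p50 in 6 and RelB in 5. *PAX5* thus had the most RelB calls of the 8 genes. The most read-rich region of all members, chr9:36868652-36870062, held 899 reads of p52 and 533 of p50, beside 101 of RelB and 39 of RelA. Its fold enrichment was 45.7 for p52, 34.5 for p50 and 7.54 for RelB, while RelA was not called. The highest enrichment at *PAX5* was at chr9:36983480-36985754, 38722 bp downstream of the TSS, with 50.3 for p52, 38.3 for p50 and 7.94 for RelB. Both regions were in the upper range for p50 and p52, at the 88.4th and 91.7th percentile of all called p50 regions and at the 92.9th and 94.8th percentile of all called p52 regions. For RelB they were at the 37.9th and 41.6th percentile. The highest RelB enrichment at *PAX5* was 15.8, at the 82.3rd percentile, in the region chr9:36924540-36926076, which reached 45.6 for p52 and 27.4 for p50.

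The region chr9:36918511-36919273, the one called for p52 and RelB without p50, held 38 p50 reads and 186 p52 reads. p52 thus made up 83.0% of the p50 and p52 reads (95% Wilson interval 77.6% to 87.4%), the highest share of all 39 regions. Its p50 reads per kb were at the 1.46th percentile of regions called for p50. The opposite case at *PAX5* was chr9:37001329-37001934, called for p50 alone with an enrichment of 6.08, where p52 made up 38.9% (29.8% to 49.0%). Regions with more p50 and with more p52 reads were thus present within the same gene. Intervals of this kind cover counting error only.

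*IKZF1*, which encodes the zinc finger factor Ikaros, had the most regions. Their summits were spread from -77896 to 131827 bp relative to the TSS, with negative values upstream, and 10 of the 18 lay within 25 kb of it. None overlapped the TSS. The outermost upstream region, which was called for RelB, has another gene as its closest gene. The outermost downstream region has the TSS of another gene as its closest TSS. p50 was called in 16 regions, p52 in 15, RelB in 4 and RelA in 1. The most enriched region, chr7:50302203-50303255, lay 11669 bp upstream and reached 44.7 for p52, 35.6 for p50 and 12.6 for RelB. On either side of the TSS, p50 alone was called at 3 sites, with enrichments between 8.16 and 13.3. At 2 sites, 69179 and 87763 bp downstream, p52 alone was called, with enrichments of 9.86 and 17.4. The median percentile of enrichment at *IKZF1* was 22.3 for p50 and 48.6 for p52, whereas by pileup, the number of fragments over the summit, it was 38.5 and 60.6, so the rank of these regions depended on the measure.

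The single region called for all 4 subunits was chr7:50386989-50388047, within *IKZF1* and 72065 bp downstream of its TSS. This combination made up 2.35% of all regions. It held 125 p50, 293 p52, 45 RelA and 49 RelB reads, and the enrichments were 21.4, 41.7, 7.62 and 10.3, respectively. The 4 summits fell within 13 bp of each other. The RelA call was not equally strong in both replicates, as the signal value was at the 79.0th percentile of all RelA regions in one replicate and at the 17.4th percentile in the other. p52 made up 70.1% (65.5% to 74.3%) of the p50 and p52 reads, the highest share at *IKZF1*.

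*POU2AF1*, the coactivator of octamer factors, had 4 regions within the gene and 3 upstream on chromosome 11. p52 was called in all 7, p50 in 5 and RelB in 1. In each of the 5 regions called for both, p52 enrichment was above p50 enrichment, against 56.8% of all regions called for both. At chr11:110817172-110817887 the values were close, with 24.0 for p52 and 23.3 for p50. The highest value was 54.2 for p52 at chr11:110816132-110817126, 60505 bp upstream of the TSS, where p50 reached 32.2. The table names another gene as the closest one for this region and for its neighbour 45 bp away. The region chr11:110792324-110794357, 36697 bp upstream, carried the highest RelB enrichment of all members with 16.6, beside 34.5 for p52 and 21.5 for p50. Nearest to the TSS, the region chr11:110754380-110755367 ended 260 bp from it and was called for p52 alone with an enrichment of 12.5. There the reads differed little between the subunits, with 65 for p52 and 54 for p50, so that the p52 share of 54.6% (45.7% to 63.3%) spanned the share over all regions.

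*POU2F2*, which encodes Oct-2, the partner of POU2AF1, had the single region chr19:47328333-47328816, called for p50 alone. It held 46 p50, 13 p52, 5 RelA and 10 RelB reads. p52 made up 22.0% (13.4% to 34.1%), the lowest share of the 39 regions, and p52 reads per kb were below those of nearly every region called for p52. The p50 enrichment of 9.96 was at the 9.50th percentile of all p50 regions, so that the region ranked low among the p50 regions. The octamer factor and its coactivator therefore differed in the subunit called at or near the TSS, p50 at *POU2F2* and p52 at *POU2AF1*. The *POU2AF1* region nonetheless held 54 p50 reads, as given above.

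*BCL6*, the germinal centre repressor, had 3 regions on chromosome 3. The region that holds the amplicon above, chr3:188937586-188939675, began 6494 bp downstream of the TSS and had the highest enrichment of all members for both p50 and p52, with 53.0 and 60.9. RelB reached 12.1 there and RelA was not called. This corresponds to the 98.2nd percentile of p50 regions and the 97.7th percentile of p52 regions. A neighbour 3 bp away was called for p50 and p52 with 17.2 and 16.9. The region chr3:188947199-188947980, 1030 bp upstream of the TSS, was called for the same pair with 13.8 and 14.4, and held 42 p50 and 43 p52 reads. p50 and p52 were thus called together and nearly balanced at *BCL6*, with a p52 share of 51.9% (48.4% to 55.5%).

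*FOXO1*, a forkhead factor of early and germinal centre B cells, had 2 regions on chromosome 13, both called for p50 and p52 alone. One lay within the gene, at chr13:40071272-40071979 and 66755 bp downstream of the TSS, with enrichments of 14.0 for p50 and 11.9 for p52. The other, chr13:39989974-39991128, lay 36673 bp beyond the end of the gene and is assigned by the table to the TSS of another gene. It reached 29.1 for p50 and 14.4 for p52. *FOXO1* was the gene where p50 enrichment exceeded p52 enrichment in every region called for both, although these were only 2.

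**Figure D2:**
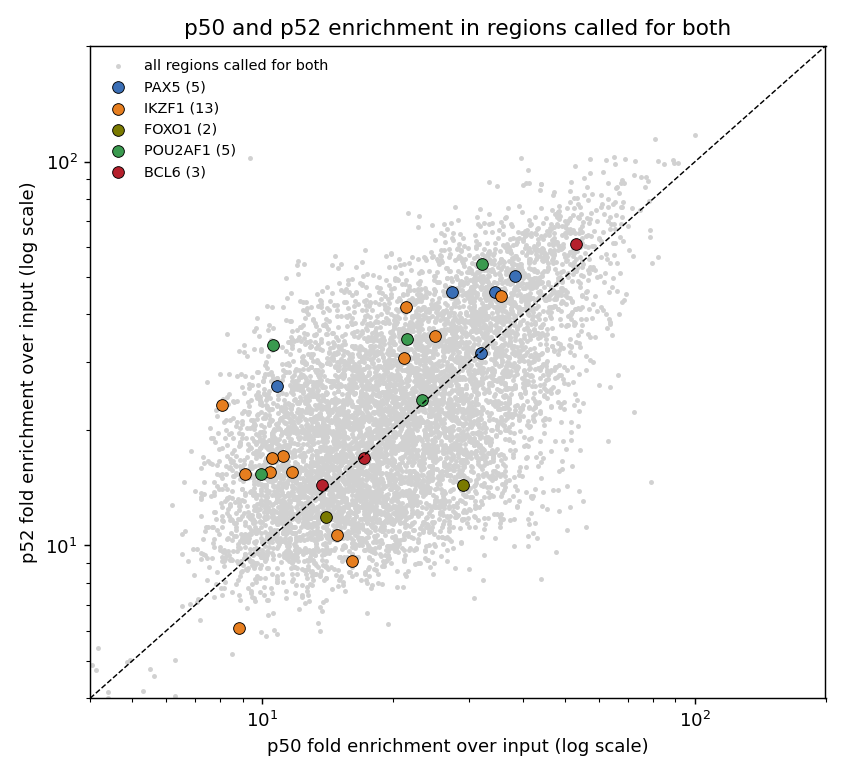
p52 against p50 fold enrichment over input (both axes logarithmic) in the 28 regions of the 8 genes that were called for both, coloured by gene, with all 7643 such regions of the data set in grey and a dashed line of equal values. p52 enrichment is the higher one in 21 of the 28 regions, and both *FOXO1* points lie below the line.

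The balance between p50 and p52 was considered over all members. In the 28 regions called for both, p52 enrichment was higher than p50 enrichment in 21, against 56.8% of all such regions. The median log2 ratio of p52 to p50 enrichment was 0.45, against 0.12. Over the reads, p52 made up 58.6% (57.7% to 59.5%) of the p50 and p52 reads in the 39 regions, against 52.3% over all regions. It was 57.8% in the regions of the other lymphoid factors and 56.4% in those of the B cell effector genes described at the end, so a share above that of all regions was not particular to the 8 genes. By gene the share was 63.2% (61.1% to 65.2%) at *POU2AF1*, 61.0% (59.5% to 62.5%) at *PAX5*, 56.9% (55.4% to 58.3%) at *IKZF1*, 51.9% at *BCL6*, 39.1% (33.4% to 45.1%) at *FOXO1* and 22.0% at *POU2F2*. The intervals of *POU2AF1* and *PAX5* overlapped, those of *IKZF1* and *BCL6* overlapped narrowly, and those of *FOXO1* and *POU2F2* overlapped narrowly as well. These intervals cover counting error only and leave out the spread between regions of a gene, so they do not show that genes differ. Single regions ranged from 22.0% to 83.0%, and those of *IKZF1* from 32.1% to 70.1%. The interval lay above the share over all regions in 15 member regions and below it in 8. Such intervals were not counted over the whole data set, so these counts do not tell whether the members differ from it. A p52 share above the share over all regions was found in 26 of 39 member regions and in 49.0% of all regions.

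**Figure D3:**
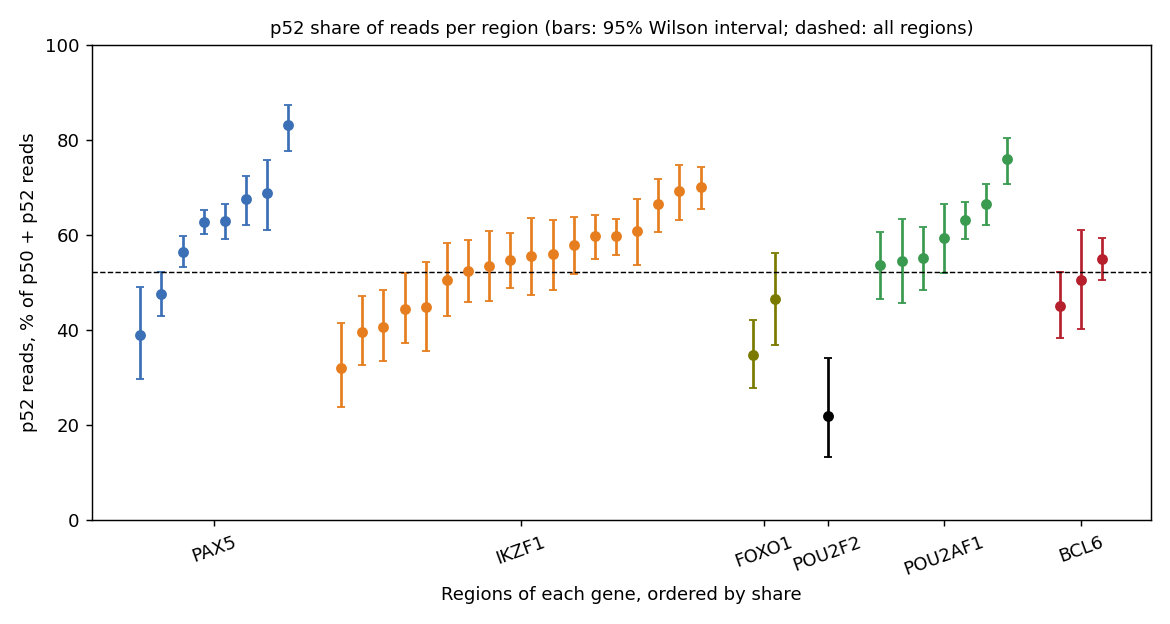
Reads of p52 as a percentage of p50 and p52 reads (vertical axis) in each of the 39 regions, grouped by gene and ordered by share within the gene, with 95% Wilson intervals as bars and the share over all 14865 regions as a dashed line. The shares range from 22.0% at *POU2F2* to 83.0% in a *PAX5* region, and regions of *PAX5* and *IKZF1* lie on both sides of the line.

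Regions called for RelB had higher p52 enrichment. In the 11 member regions called for RelB the median p52 enrichment was 41.7, with a range of 17.1 to 60.9, whereas it was 15.5 in the 23 regions called for p52 without RelB. The same order holds for all regions, with 28.0 and 15.0. The RelB enrichments of the members themselves had a median of 10.4, against 9.08 for all RelB regions. Of the genes, *PAX5* had 5 of these regions, *IKZF1* 4, *POU2AF1* and *BCL6* 1 each, and *FOXO1* and *POU2F2* none.

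A missing call did not always mean few reads. Of the 6 member regions without a p50 call, 4 held at least as many p50 reads per kb as the 5th percentile of called p50 regions, and so did 3 of 5 for p52. In the whole data set this applied to 30.9% and 30.5% of the uncalled regions, respectively. For RelB it was 8 of 28 regions (27.3% in the whole data set) and for RelA 14 of 38 (20.3%). The regions called for p50 or p52 alone therefore include some with reads of the other subunit.

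In terms of strength the members covered nearly the whole range of the data set. Their median p50 enrichment was 14.0, against 16.8 for all p50 regions, and their median p52 enrichment 17.2, against 17.2. The percentile of p50 enrichment had a median of 35.3 and ranged from 0.36 to 98.2, and that of p52 had a median of 50.1 and ranged from 0.61 to 97.7. By gene the median percentile of p52 enrichment was 81.7 at *PAX5*, 69.3 at *POU2AF1*, 48.8 at *BCL6*, 48.6 at *IKZF1* and 29.3 at *FOXO1*. By pileup it was 85.9, 64.6, 39.1, 60.6 and 12.6 for the same genes, so that *IKZF1* then ranked above *BCL6*. The gene with the most regions, *IKZF1*, was in neither measure the one with the highest median.

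The level of background, given here as pileup (fragments over the summit) divided by fold enrichment, differed between the genes. Its median for p50 was 4.65 at *PAX5*, 4.02 at *POU2AF1* and 3.99 at *IKZF1*, against 3.36 over all p50 regions. It was lower at *FOXO1* (2.61) and *BCL6* (2.45). Because background is derived from pileup and enrichment, a difference between the ranks by these measures follows from its definition. The leading *BCL6* region was at the 90.2nd percentile by p50 pileup and the 98.2nd by p50 enrichment. The *PAX5* region with the most reads was at the 98.5th by pileup and the 88.4th by enrichment. The part of this background in the order of the genes was not tested.

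**Figure D4:**
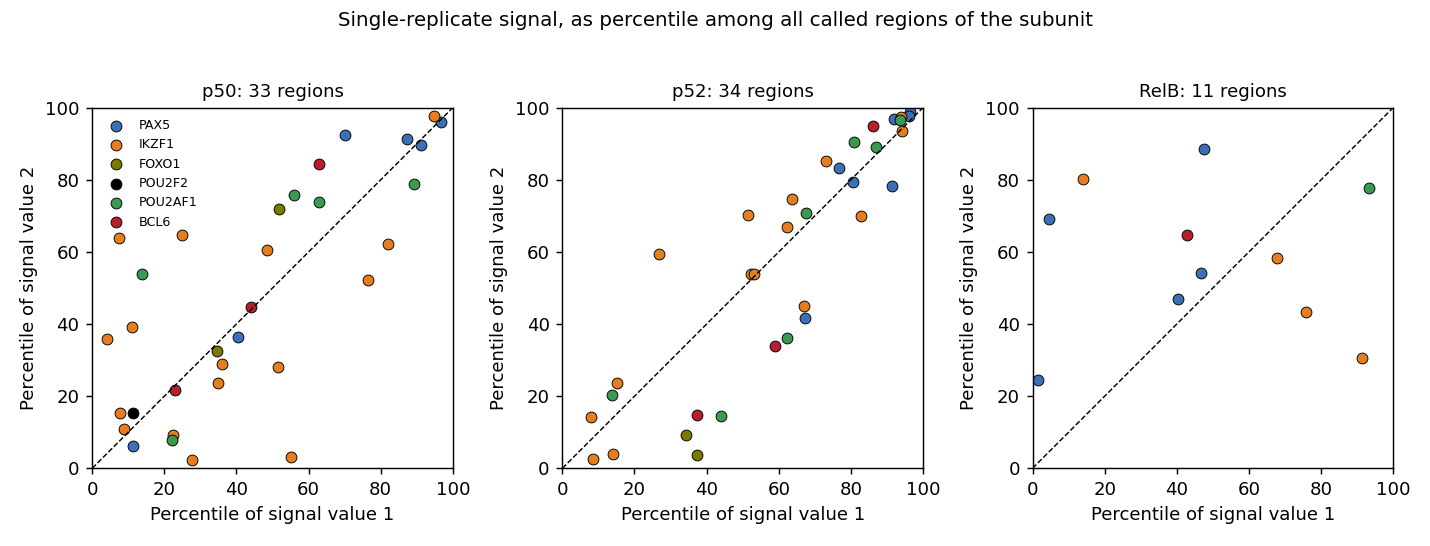
Percentile of the signal value of one replicate (horizontal axis) against that of the other (vertical axis), among all called regions of the same subunit, for the member regions called for p50, p52 and RelB. Points are coloured by gene and the dashed line marks equal percentiles; the table does not tell which value belongs to which replicate. The points lie closest to the line for p52 and farthest from it for RelB.

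The only values of single replicates are the 2 signal values per subunit. For p52 the percentiles of both values differed by a median of 8.58 points over the 34 member regions, and both were on the same side of the median in 29. For p50 the median difference was 12.2 points and 27 of 33 regions were on the same side. For RelB it was 23.1 points, with 4 of 11 on the same side. Among the members, the rank of a region differed more between the replicates for RelB than for p52, whose replicates were made with different antibodies. These differences were not computed over all called regions, so it cannot be told whether they are particular to the members. Signal values exist only for regions that passed the IDR between the same replicates, so some likeness of the values was a condition of the call.

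Other genes of lymphoid cells were set beside the 8 factors, including factors best known from T cells such as GATA3, TCF7 and LEF1. Gene names could be matched for 10 of 14 other lymphoid transcription factors and for 8 of 16 B cell surface, signalling and effector genes. The names came from lists in the study's supplement that partly hold target genes, so the matched genes are not an even sample, and each of them had at least one region. The 10 factors had 82 regions, most of them at *ETS1* (21), *GATA3* (17) and *BCL11A* (11). p52 was called in 78 of the 82 regions (95.1%, against 73.3% of all regions), p50 in 52 (63.4%, against 73.8%), RelB in 25 (30.5%, against 26.8%) and RelA in 2. At *ETS1*, an ETS family factor of lymphocytes, p52 was called in 20 of 21 regions and p50 in 9, a wider gap than at *IKZF1* with 15 and 16 of 18. The 8 surface, signalling and effector genes had 16 regions in all and a median of 2. Of these regions 15 were called for p50 and 15 for p52 (93.8% each), 6 for RelB (37.5%) and none for RelA. *FCER2* (CD23) and the chemokine receptor gene *CXCR5* had 3 each, and those with 2 included *BLNK*, *PTPN6* and *CD40*. Both regions of *CD40*, a receptor that activates NF-κB, were called for RelB.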

How the data were processed

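Per the labels and the study's methods, the authors mapped reads to hg18 with Bowtie, removed duplicates with SAMtools, reduced libraries to 10000000 reads and called peaks with MACS. The authors deposited the IDR between replicates as a fraction and the FDR of MACS as a q-value, and called regions with both below 0.05. The deposited fold enrichment is a ratio of the merged ChIP to input and the deposited pileup a coverage signal. The deposited read counts are from merged replicates without normalization (before or after the reduction is not stated). The signal value, a score per replicate, was deposited without its scale. Genes are from Ensembl 54.

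The regions held 1654137 p50, 1810792 p52, 315151 RelA and 470788 RelB reads. TSS positions were derived from the deposited distances. Percentiles are mid-ranks among the regions called for the same subunit, and intervals are 95% Wilson intervals. The regions named were, per gene, those over the TSS and the most enriched one, and across genes the leading region of each subunit and every RelA region; others were chosen after their values were seen. Members and lists were chosen with earlier results of these data known. One gene of the lists set beside the members is not reported here by name. The functions were tested on simulated data. The alternatives were stricter calls, other gene assignments, pileup or single-replicate signal in place of enrichment, and other windows. Python 3.11.15, numpy 2.4.6 and pandas 2.3.3 were used.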

Additional observations from a re-analysis of the deposited data

How the results depend on the processing

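Leaving out *IKZF1*, the gene with the most regions, lowered the numbers of called regions to 19 for p52, 17 for p50, 0 for RelA and 7 for RelB. The single RelA region is at this gene. The 18 regions of *IKZF1* also left the total, so lower counts do not by themselves mean lower shares. The median percentile of the members was 67.0 for p52 instead of 50.1, and 42.7 for p50 instead of 35.3, when pileup replaced fold enrichment. With the signal values of single replicates it was 40.4 and 44.6 for p50 and 65.3 and 68.4 for p52, 46.8 with the lower of the values for RelB, and 17.4 for the RelA region. As the median of the regions, the p52 share was 62.9% at *PAX5*, 55.2% at *IKZF1* and 59.4% at *POU2AF1*. Without the region with the most reads it was 46.5% at *FOXO1* and 46.8% at *BCL6*. An FDR below 1e-05 or a fold enrichment of at least 5 changed no count of called regions among the members, whereas an IDR below 0.01 could remove no call, since every deposited IDR was below it. Summits within 250 bp removed 1 of the 28 regions shared by p50 and p52. A window of 5 kb raised the share of regions near a TSS from 5.13% to 10.3%. Assignment by closest gene or TSS only, or within 100 kb, kept the counts within 1.5 times the reported ones. No paired analysis was possible because the columns carry no replicate number and no result comes from a test. The *POU2F2* region rests on 59 p50 and p52 reads. The effect of depth on weak regions was not tested.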
